A study of Mus musculus with 4 samples.

Results

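Transcripts of 57 mouse genes were examined, chosen by name: 20 genes for the cytosolic aminoacyl-tRNA synthetases, and 37 genes of amino acid synthesis, amino acid transport and the response driven by the transcription factor ATF4. Probe sets annotated to 54 of the 57 genes were measured, of 18193 genes in all, and comprised 19 synthetase genes and 35 amino acid response genes. Dars, Pycr1 and Gdf15 were not analysed here, because no probe set in the annotation used carries their symbol. The 54 genes were read by 115 probe sets, and 35 of them by more than 1.

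RNA came from MC/9, a growth factor-dependent mouse mast cell line that the labels trace to liver of (B6 X A/J)F1 mice at 13 days. It was hybridised to Affymetrix whole-genome mouse arrays, on which a probe set of short oligonucleotides reads a transcript. The groups were cells given both berberine at 10 microM and anti-DNP IgE at 500 microg/ml (BER+DNP), cells given berberine at 10 microM alone (BER), cells given anti-DNP IgE at 500 microg/ml alone (DNP) and untreated cells (control). The 3 treated groups had 24 h of treatment and then 6 h of culture; no times are given for the control. All cells grew in medium with 10% T-STIM (a growth factor supplement from rat), 10% serum and, as a reducing agent, 2-mercaptoethanol at 50 microM. Berberine is a plant alkaloid known to inhibit mitochondrial complex I, and the study asks which genes accompany its anti-inflammatory action in mast cells given the antibody. Each group held 1 array, so differences below carry no error estimate and no test was made; the number of arrays limits the precision. Time in culture and treatment cannot be told apart in comparisons with control.

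Aminoacyl-tRNA synthetases join each amino acid to its tRNA before translation. When amino acids run short, uncharged tRNA activates the kinase GCN2 (gene Eif2ak4), and when the endoplasmic reticulum or mitochondria are disturbed other kinases do the same work: they phosphorylate the initiation factor eIF2, general translation slows, and the ATF4 message is translated more. ATF4 then raises genes that make amino acids, import them and charge tRNAs, as well as regulators such as CHOP (gene Ddit3) and TRIB3.

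Signals are given on the log2 scale as deposited. A gene was read by its brightest probe set, by the mean over the 4 arrays, and entered counts if that mean reached 3.138, the median of all probe sets other than controls. Of the 54 genes, 48 passed: 18 synthetase genes and 30 response genes. The 6 below it were Lars, Psat1, Cth, Slc7a11, Atf3 and Cebpg, with means between 1.92 and 3.07. A gene was called when it lay at least 1.5-fold (0.585 on the log2 scale) apart between 2 arrays. The comparisons BER against control and BER+DNP against DNP share no array, and they are called the 2 berberine pairs, the first without and the second with the antibody. In RNA from whole cultures, fewer cells of a type and less RNA per cell cannot be told apart.

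The markers of the labelled cell type gave a mixed picture. Of 12 mast cell markers 6 lay below the filter, namely Cpa3, Kit, Fcer1a, Ms4a2, Tpsab1 and Mitf, which include the stem cell factor receptor and subunits of the IgE receptor. The other 6 passed it, with mean signals of 5.87 for Gata2, 5.50 for Hdc, 4.08 for Tpsb2, 3.85 for Mcpt4, 3.56 for Fcer1g and 3.31 for Cma1. Of 6 pan-leukocyte markers 4 passed, whereas Ptprc (2.29) and Coro1a (2.95) lay below the filter. Markers of other cell types passed too: 5 of 6 fibroblast and 5 of 6 epithelial markers, among the last Krt17 (9.60) and Krt14 (8.61). The summed log2 signal of the 12 mast cell markers was 42.1 in BER+DNP, 41.6 in BER, 41.8 in DNP and 40.2 in control. That of the 6 epithelial markers was 36.4 in BER+DNP, 35.5 in BER, 36.7 in DNP and 35.8 in control. The poly-A spike-in probe sets of the array had a median difference of -0.43 for BER against control and of -0.13 for BER+DNP against DNP. The 5′ probe set of beta-actin, a sign of RNA quality, gave -0.57 and -0.59 in the same pairs, and the 3′ one -0.31 and -0.22. The 5′ probe set of Gapdh gave 0.05 and -0.08, however, and its 3′ one -0.03 and 0.02. Hybridisation controls had medians of 0.03 and 0.10. The part of the poly-A and beta-actin shifts in the results below was not tested.

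Asparagine synthetase and the transcription factor gene Cebpb had higher signals with berberine in both pairs. The synthetase genes called were Aars in the first pair and Mars1 in the second. In BER against control 4 of the 48 genes were at least 1.5-fold higher (Asns, Cebpb, Aars and Slc6a9), beside 1.01% of all 12585 genes past the filter, and 0 were lower, beside 0.985%. In BER+DNP against DNP 2 were higher (Asns and Mars1), beside 0.509%, and 0 lower, beside 0.699%. At 2-fold, Asns was the 1 member higher in BER against control, beside 0.0636% of all genes. Asns alone was called in both pairs, as were 0.0795% of all genes. Above 0 in both pairs lay 23 of the 48, or 10 of 18 synthetase genes and 13 of 30 response genes, beside 25.4% of all genes. Below 0 in both lay 8, or 3 synthetase genes and 5 response genes, beside 29.7%.

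The medians were small. Synthetase genes had a median log2 difference of 0.12 for BER against control and 0.08 for BER+DNP against DNP, response genes 0.04 and 0.14, and all genes past the filter 0.00 and -0.02. The median size of a difference, whatever its sign, was 0.14 for the members and 0.14 for all genes in the first pair, and 0.17 and 0.13 in the second. With the median of all probe sets of a gene the synthetase median in the second pair was 0.019 and 6 of 17 genes lay above 0 in both pairs, and leaving out cross-hybridising probe sets gave a median of 0.022. The members differed from each other more than their medians did from 0. Synthetase genes spanned -0.35 to 0.71 in the first pair and -0.46 to 0.77 in the second, and response genes -0.34 to 1.12 and -0.52 to 0.73. Across the 48 members the 2 berberine differences correlated at r = 0.49 (Spearman's rho 0.41), and across all 12585 genes at r = 0.23. These correlations are across genes of the same 4 arrays, which are not independent.

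**Figure D1:**
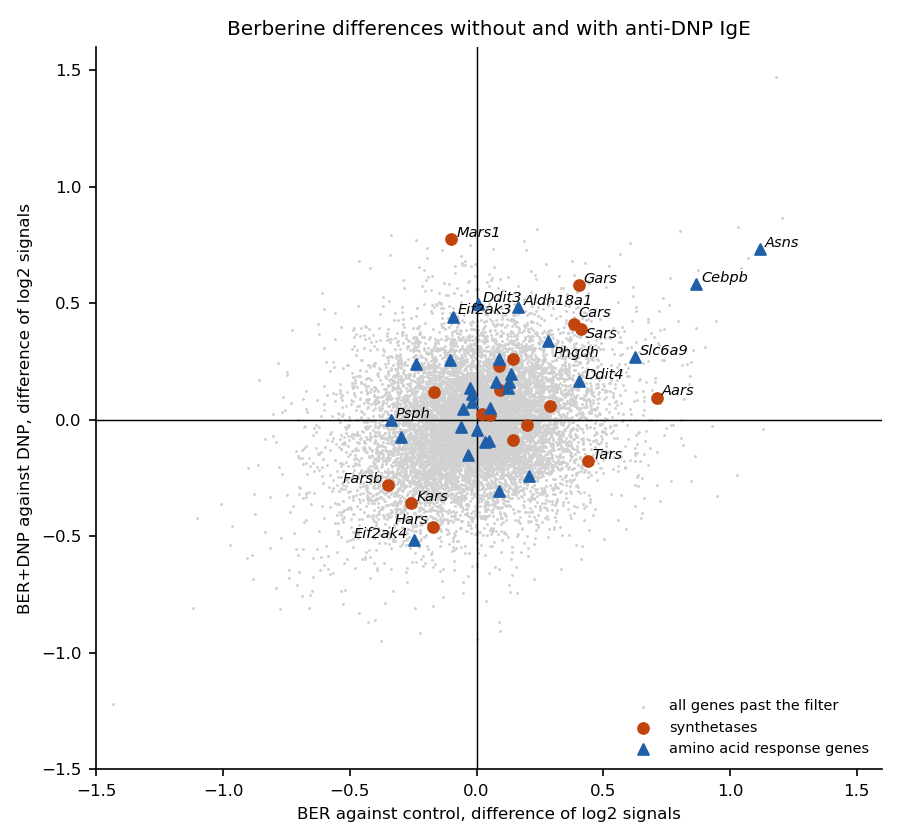
Difference of log2 signals, BER against control on the horizontal axis and BER+DNP against DNP on the vertical axis, for the 18 synthetase genes (circles), the 30 amino acid response genes (triangles) and all 12585 genes past the filter (grey points). Asns, at 1.12 and 0.73, and Cebpb, at 0.87 and 0.58, lie far out at the upper right, and Eif2ak4, at -0.25 and -0.52, is among the members at the lower left.

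Asns, which makes asparagine from aspartate and glutamine, led the members. Its brightest probe set read 5.32 in BER, against 4.20 in control, and 5.05 in BER+DNP, against 4.32 in DNP. Both arrays with berberine thus lay above both arrays without it. The differences of 1.12 (2.17-fold) and 0.73 (1.66-fold) ranked 4th and 14th from the highest of the 12585 genes, and the smaller of them ranked 5th when every gene was ordered by its smaller difference. The other probe set of Asns, of a type that can cross-hybridise, read 3.88 in BER, against 3.52 in control, and 4.19 in BER+DNP, against 3.01 in DNP. It too was higher in both pairs, by 0.35 and 1.19, but with the larger difference in the other pair. With 32 added to every signal before the logarithm, which compresses dim genes, the differences of the brightest probe set were 0.51 and 0.33 and no longer passed 1.5-fold.

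The Asns promoter is known for the element through which ATF4 and C/EBP factors act on the gene, and it is shown for that reason. The core of such elements, TGATGNAA or its reverse complement TTNCATCA, was searched on both strands from 250 bases before to 50 bases after each gene's start, with sequences of RefSeq on mouse build GRCm38.p6. In the 250 bases before the start of Asns (chr6:7693210-7693459, minus strand), printed 5′ to 3′ with the match in capitals, the match begins 23 bases before the start.
Asns: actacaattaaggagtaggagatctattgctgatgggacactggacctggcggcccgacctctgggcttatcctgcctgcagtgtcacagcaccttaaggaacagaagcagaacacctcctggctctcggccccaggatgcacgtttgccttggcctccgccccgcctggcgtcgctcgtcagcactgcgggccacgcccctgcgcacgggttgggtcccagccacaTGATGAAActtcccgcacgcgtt

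A promoter sequence was matched by symbol for 47 of the 57 genes. The core was found in 14 of them (29.8%), in 5 of 13 synthetase genes and 9 of 34 response genes, where 4.51% of 27025 genes in the table hold it. The members were chosen by name, in part for their place in the ATF4 response, so the higher share is no independent support. The matches below come from genes that stand at different places in the berberine comparison, and they are set out to let the sites be compared, each with 10 bases on either side and the core in capitals. They lie at chr6:55037961-55037988 (Gars, plus strand), chr15:11399656-11399683 (Tars, minus), chr2:119351039-119351066 (Chac1, plus), chr2:152344029-152344056 (Trib3, minus), chr7:45615612-45615639 (Fgf21, minus) and chr3:50443643-50443689 (Slc7a11, minus, with 2 matches in 47 bases).
Gars: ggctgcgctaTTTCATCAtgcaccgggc
Tars: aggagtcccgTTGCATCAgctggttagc
Chac1: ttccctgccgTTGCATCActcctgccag
Trib3: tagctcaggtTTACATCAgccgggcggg
Fgf21: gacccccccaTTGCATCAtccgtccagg
Slc7a11: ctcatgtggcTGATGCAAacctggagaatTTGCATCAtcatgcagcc

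Other genes with a match included Iars, Yars, Pycr1, Got1, Atf3 and Nupr1. A match is a description of letters in this window and does not show binding. Of the 40 members that passed the filter and had a promoter sequence, the 11 with a match had medians of 0.14 in the first pair and 0.05 in the second, and the 29 without one 0.08 and 0.14. The order of the medians thus differed between the pairs. Cebpb, Ddit3 and Sars had no match in the window searched.

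Among the synthetase genes past the filter, those for glycine, serine and cysteine had the highest values when each gene was ordered by the smaller of its 2 berberine differences. Gars, which charges glycine tRNA, read 5.47 in BER, against 5.07 in control, and 5.40 in BER+DNP, against 4.83 in DNP. Sars, for serine, read 8.01 in BER, against 7.60 in control, and 8.03 in BER+DNP, against 7.64 in DNP. Cars, for cysteine, read 6.03 in BER, against 5.65 in control, and 5.91 in BER+DNP, against 5.50 in DNP. For each of the 3 genes both arrays with berberine lay above both arrays without it. Their differences were 0.40 and 0.58 (Gars), 0.41 and 0.39 (Sars) and 0.38 and 0.41 (Cars). All stayed below the 1.5-fold limit, and only the second of Gars, at 1.49-fold, came close to it. Ordered by the smaller of the 2 differences, the genes ranked 45th, 53rd and 59th of 12585. These 3 are the synthetase genes at least 0.2 higher in both pairs, as were 3.69% of all genes.

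Aars and Mars1 passed 1.5-fold in 1 pair each. Aars, for alanine, read 8.29 in BER, against 7.58 in control, but 7.87 in BER+DNP, against 7.77 in DNP, so the reading of BER alone set its difference of 0.71. Mars1, for methionine, read 4.45 in BER, against 4.55 in control, and 4.85 in BER+DNP, against 4.07 in DNP. Its difference of 0.77 in the second pair rests on a DNP reading below all 3 others as well as on a high BER+DNP reading. With 32 added to the signal that difference was 0.32. Wars, for tryptophan, read 5.81 in BER, against 5.67 in control, and 5.80 in BER+DNP, against 5.54 in DNP. That probe set can cross-hybridise; the 2 others of Wars past the filter gave 0.03 and 0.00, and 0.20 and -0.43, so the direction in the second pair turned without cross-hybridising probe sets.

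Other synthetase genes lay lower with berberine in both pairs: Hars, Farsb and Kars. Farsb, which encodes the beta subunit of the phenylalanine enzyme, read 9.36 in BER, against 9.71 in control, and 9.62 in BER+DNP, against 9.90 in DNP. Kars, for lysine, read 7.11 in BER, against 7.37 in control, and 7.13 in BER+DNP, against 7.49 in DNP. Hars, for histidine, read 4.38 in BER, against 4.55 in control, and 4.24 in BER+DNP, against 4.70 in DNP. In all 3 the arrays with berberine lay below the arrays without it, and Farsb and Kars were at least 0.2 lower in both pairs, as were 5.89% of all genes. Farsa, the alpha subunit of the same phenylalanine enzyme, gave 0.02 and 0.02. Vars, for valine, read 4.69 in BER, against 4.85 in control, and 4.74 in BER+DNP, against 4.62 in DNP, with opposite signs. The remaining 7 genes past the filter (Eprs, Iars, Nars, Qars, Rars, Tars and Yars) ranged from 0.05 to 0.44 in the first pair and from -0.18 to 0.23 in the second. Of all members, Mars1 and Tars had opposite signs in the pairs with differences at least 1.5-fold apart, as had 3.93% of all genes.

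**Figure D2:**
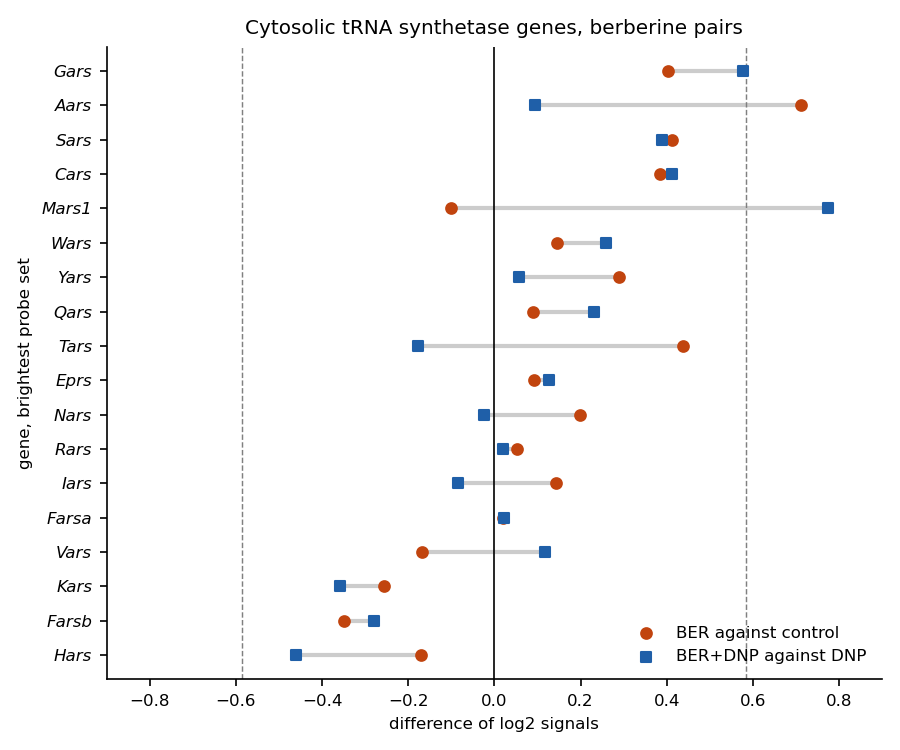
Difference of log2 signals of the 18 synthetase genes past the filter, ordered by the mean of the 2 berberine pairs; circles are BER against control, squares BER+DNP against DNP, and dashed lines mark 1.5-fold. Gars, Sars and Cars lie at 0.38 or higher in both pairs, Aars and Mars1 differ widely between the pairs, and Kars, Farsb and Hars lie below 0 in both.

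The multisynthetase complex is the cytosolic assembly that holds 8 of the enzymes listed, and whether the split followed it was not tested. Within it lies the enzyme of Kars, whereas those of Gars, Sars, Cars, Farsb and Hars lie outside the complex. The 6 measured genes of its enzymes past the filter had medians of 0.07 and 0.07 in the 2 pairs, with 3 above 0 in both and 1 below. The 12 genes of enzymes outside the complex had medians of 0.24 and 0.08, with 7 above 0 in both and 2 below. In a list of synthetase genes often named as ATF4 targets, written with results of these arrays known and so no independent support, 7 of 11 lay above 0 in both pairs and 0 below; their medians were 0.29 and 0.13. The mitochondrial synthetase genes listed, which include none for glycine or lysine, had medians of -0.09 and -0.10, with 1 of 13 above 0 in both pairs and 6 below. In BER against control 2 of the 13, Iars2 (0.86) and Wars2 (0.85), were at least 1.5-fold higher, but they gave -0.16 and -0.26 in BER+DNP against DNP. The difference between the cytosolic and mitochondrial lists was not tested.

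By their brightest probe sets, the 2 kinase genes of the list differed from each other. Eif2ak4, which encodes GCN2, read 4.92 in BER, against 5.17 in control, and 4.80 in BER+DNP, against 5.32 in DNP. It was the lowest member by the mean of the pairs, and its larger value, -0.25, ranked 454th from the lowest of the genes. Eif2ak3, which encodes the endoplasmic reticulum kinase PERK, read 5.10 in BER, against 5.19 in control, and 5.38 in BER+DNP, against 4.94 in DNP. A second probe set of Eif2ak3 past the filter gave -0.03 and 0.01, so the difference in the second pair was seen by 1 of the 2. Transcript signals do not show whether either kinase was active.

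Of the 4 transcription factor genes past the filter, Cebpb stood out. Cebpb, which encodes C/EBPbeta, a partner and target of ATF4, read 7.90 in BER, against 7.03 in control, and 7.81 in BER+DNP, against 7.22 in DNP. Its differences of 0.87 (1.82-fold) and 0.58 (just short of 1.5-fold) ranked 14th and 65th of the genes, and 11th by the smaller one. A second probe set, with a mean of 3.09 below the filter, read 3.42 in BER, against 2.90 in control, and 3.34 in BER+DNP, against 2.70 in DNP. Both probe sets therefore put the arrays with berberine above those without.

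Atf4 itself differed little between the arrays. It read 7.12 in BER, against 6.98 in control, and 7.21 in BER+DNP, against 7.02 in DNP. ATF4 is regulated mostly through translation, so its transcript is not a measure of the protein. A second probe set of Atf4 gave -0.01 and 0.42, and another, below the filter, 0.08 and 0.10. Ddit3, which encodes the stress factor CHOP, read 5.38 in BER, against 5.37 in control, and 5.79 in BER+DNP, against 5.29 in DNP. BER+DNP was the single array that stood above the rest, and the second probe set of Ddit3 gave the same pattern, with 0.16 and 0.49. Atf5 gave -0.03 and -0.15. Atf3 read 2.38 in BER, against 2.41 in control, and 2.41 in BER+DNP, against 2.58 in DNP, all below the filter, as was Cebpg.

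Genes of amino acid synthesis other than Asns gave mixed results. Phgdh, which opens serine synthesis, read 8.08 in BER, against 7.79 in control, and 8.12 in BER+DNP, against 7.79 in DNP. Aldh18a1, of proline synthesis, read 3.58 in BER, against 3.41 in control, and 3.42 in BER+DNP, against 2.94 in DNP, close to the filter. Psph, which completes serine synthesis, read 4.01 in BER, against 4.35 in control, and 3.69 in BER+DNP, against 3.70 in DNP. Phgdh was thus higher on both arrays with berberine, whereas Psph, in the same pathway, was highest in control. Shmt2, which passes serine carbon to folate in mitochondria, gave 0.13 and 0.16, and Mthfd2, the next enzyme, 0.05 and -0.09. Cbs, Got1 and Gpt2 ranged from -0.24 to 0.21 over both pairs. Of the 9 genes past the filter, 5 lay above 0 in both pairs and 2 below.

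Among transporters, Slc6a9 was the only one of 5 past the filter above 0 in both pairs. Slc6a9, which imports glycine, read 6.92 in BER, against 6.29 in control, and 6.59 in BER+DNP, against 6.32 in DNP. Its second probe set, of nearly the same brightness, gave -0.08 and -0.01, so the difference was seen by 1 of the 2. Slc7a5 and Slc3a2, the subunits of the large neutral amino acid exchanger, gave -0.24 and 0.24, and -0.02 and 0.08. Slc7a1, for arginine and lysine, gave -0.03 and 0.14, and Slc38a2, for glutamine and other small amino acids, 0.03 and -0.10. Slc7a11, the cystine transporter subunit, read 3.21 in BER, against 2.89 in control, and 2.99 in BER+DNP, against 3.17 in DNP, close to the filter throughout.

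The stress effectors best known as strong ATF4 and CHOP targets showed little. Trib3, a pseudokinase that restrains AKT and ATF4, read 5.33 in BER, against 5.38 in control, and 5.59 in BER+DNP, against 5.55 in DNP. Chac1, which breaks down glutathione, read 4.70 in BER, against 4.80 in control, and 4.70 in BER+DNP, against 4.44 in DNP. Sesn2, a sensor that restrains mTORC1, read 5.66 in BER, against 5.58 in control, and 5.83 in BER+DNP, against 5.67 in DNP. Neither Trib3 nor Chac1 kept 1 direction, and the Sesn2 differences of 0.08 and 0.16 were near the median size of all genes.

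Ddit4, an mTORC1 inhibitor that also responds to ATF4, was higher in both pairs, with 4.54 in BER, against 4.14 in control, and 4.20 in BER+DNP, against 4.04 in DNP. Nupr1 read 3.56 in BER, against 3.86 in control, and 3.61 in BER+DNP, against 3.69 in DNP. Ppp1r15a, which brings a phosphatase to eIF2 and so ends the response, read 4.39 in BER, against 4.30 in control, and 4.06 in BER+DNP, against 4.37 in DNP. Eif4ebp1, a translation inhibitor, gave -0.02 and 0.11. Over the 7 effectors, 2 lay above 0 in both pairs and 1 below.

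Of the secreted factors, Fgf21, a stress hormone, read 4.31 in BER, against 4.31 in control, and 4.28 in BER+DNP, against 4.33 in DNP, with no visible difference. Vegfa, the vascular growth factor gene, gave 0.12 and 0.14 with its brightest probe set. A second probe set of Vegfa, singled out after its values were seen, read 5.09 in BER, against 4.64 in control, and 5.11 in BER+DNP, against 4.48 in DNP. Stc2, a secreted glycoprotein gene, gave 0.09 and 0.26.

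**Figure D3:**
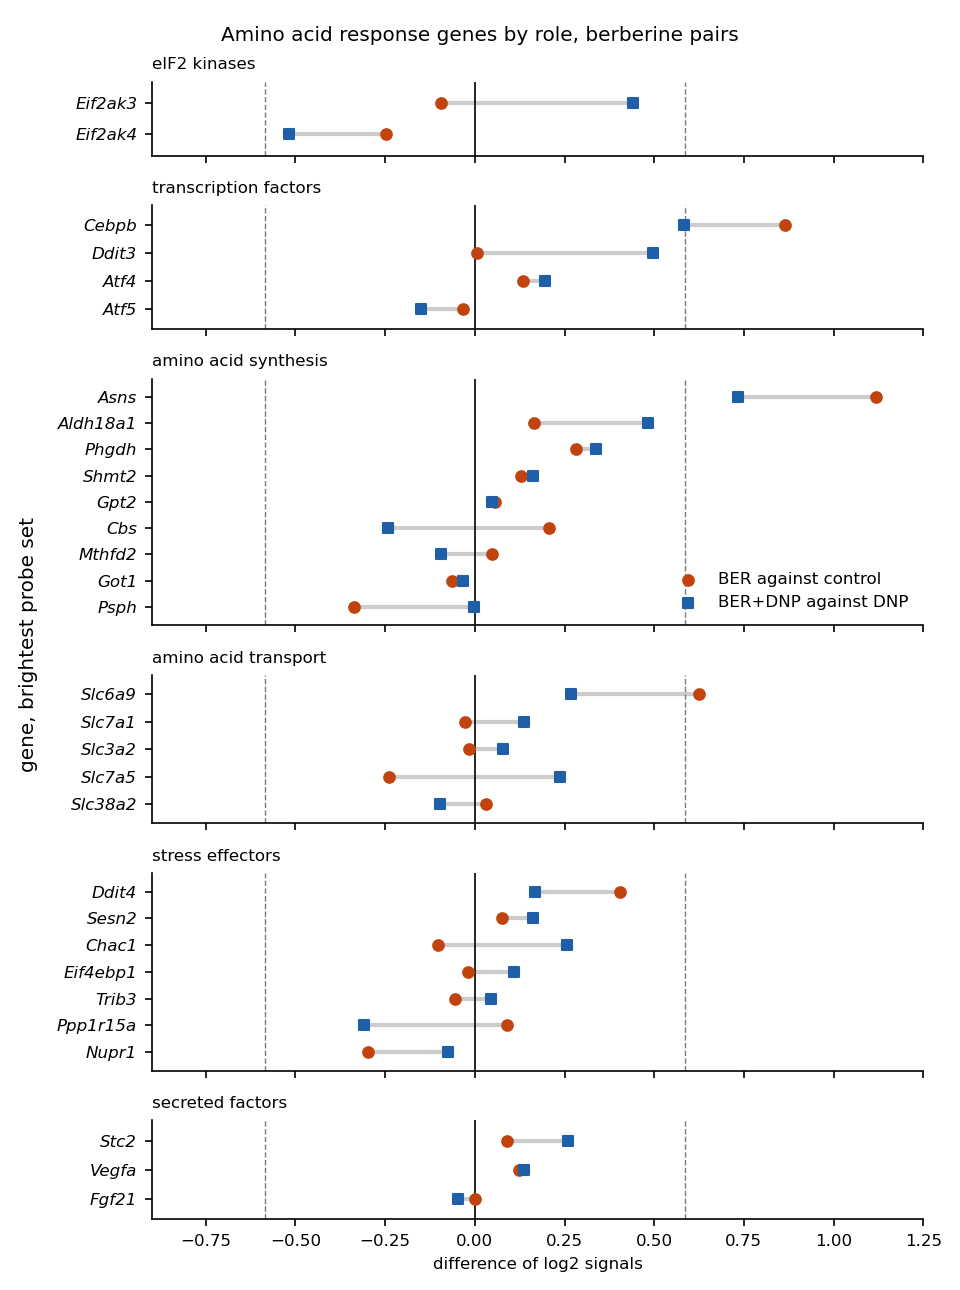
Difference of log2 signals of the 30 amino acid response genes past the filter, grouped by role; circles are BER against control, squares BER+DNP against DNP, and dashed lines mark 1.5-fold. Asns and Cebpb stand to the right in both pairs, while Trib3, Chac1 and Fgf21 lie near 0 and Eif2ak4 lies to the left.

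The signals of single arrays show how the differences arose. Asns, Cebpb, Gars, Sars and Cars had the same order in both pairs, with BER above control and BER+DNP above DNP, and Farsb, Kars and Eif2ak4 had the reverse order. For Psph both arrays without the antibody read higher than both arrays with it, as they did for Iars, Slc7a1, Cbs and some other members.

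**Figure D4:**
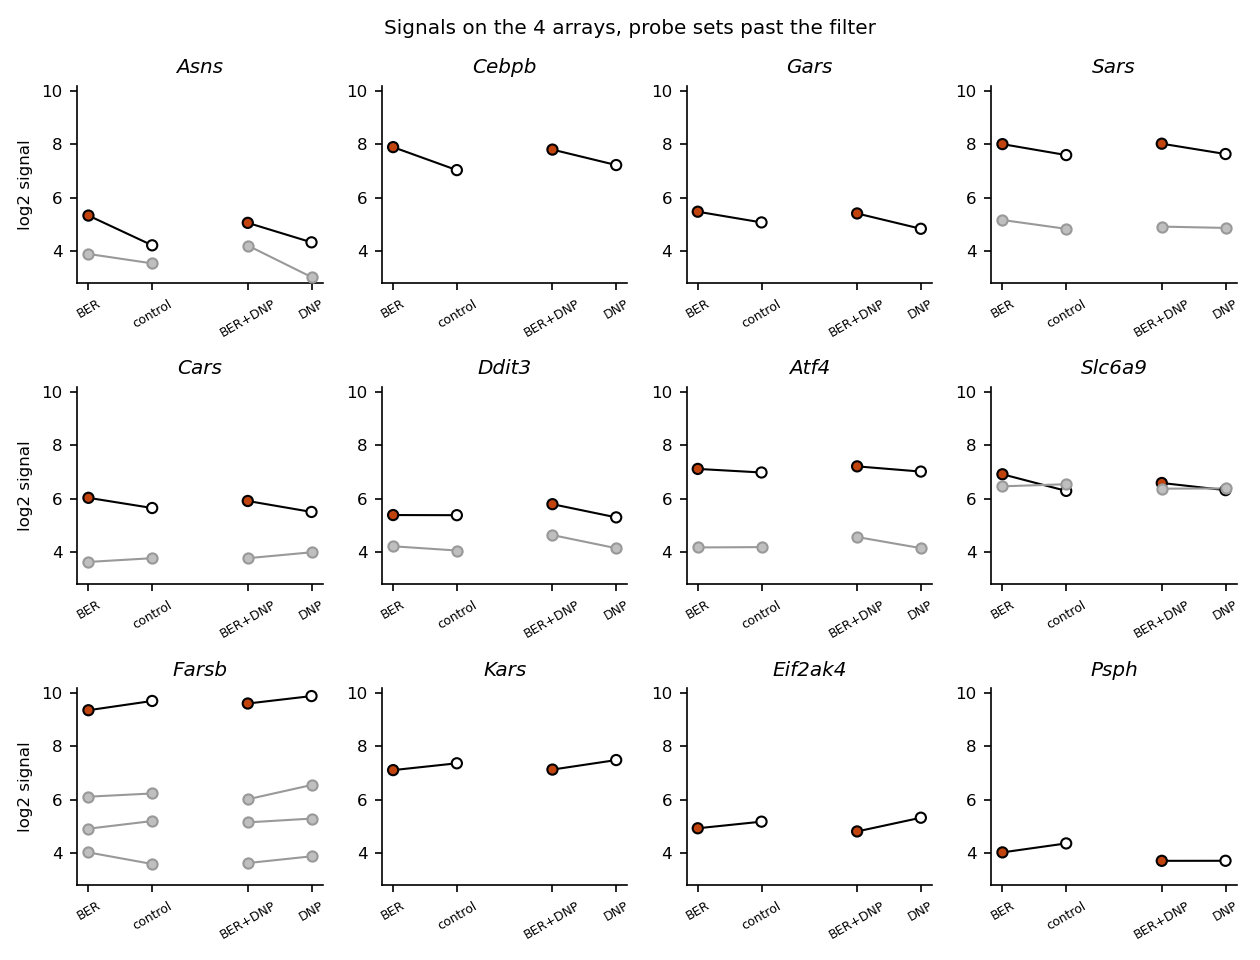
Log2 signals (vertical axis) on the 4 arrays for 12 members; black outlines are the brightest probe set, filled for arrays with berberine, grey symbols are other probe sets past the filter, and lines join the 2 arrays of a pair. Asns reads 5.32 in BER, against 4.20 in control, and 5.05 in BER+DNP, against 4.32 in DNP.

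Probe sets of 1 gene often disagreed. Of the 80 member probe sets past the filter, 33 lay above 0 in both berberine pairs and 16 below, beside 25.2% and 29.5% of all 18496 such probe sets. In 23 members at least 2 probe sets passed the filter. For 7 of them (Aars, Sars, Asns, Shmt2, Ddit3, Sesn2 and Vegfa) every one lay above 0 in both pairs, as in 5.28% of 4089 genes with several probe sets, and for 0 every one lay below, as in 7.87%. The second probe set of Cars gave -0.14 and -0.22, against 0.38 and 0.41 for the brightest, so the Cars result rests on 1 of 2 probe sets. The second of Sars gave 0.33 and 0.05, and the second of Aars 0.01 and 0.22. For Farsb, 3 of 4 probe sets lay below 0 in both pairs and the dimmest gave 0.44 and -0.25. All 4 probe sets of Phgdh past the filter can cross-hybridise; the dimmer 3 gave 0.31, 0.14 and 0.69 in the first pair, and -0.02, -0.29 and -0.09 in the second. Gars, Kars, Hars, Eif2ak4 and Mars1 each had 1 probe set past the filter and so no such check. The probe sets of Cars, Sars, Farsb and Phgdh were singled out after their values were seen.

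**Figure D5:**
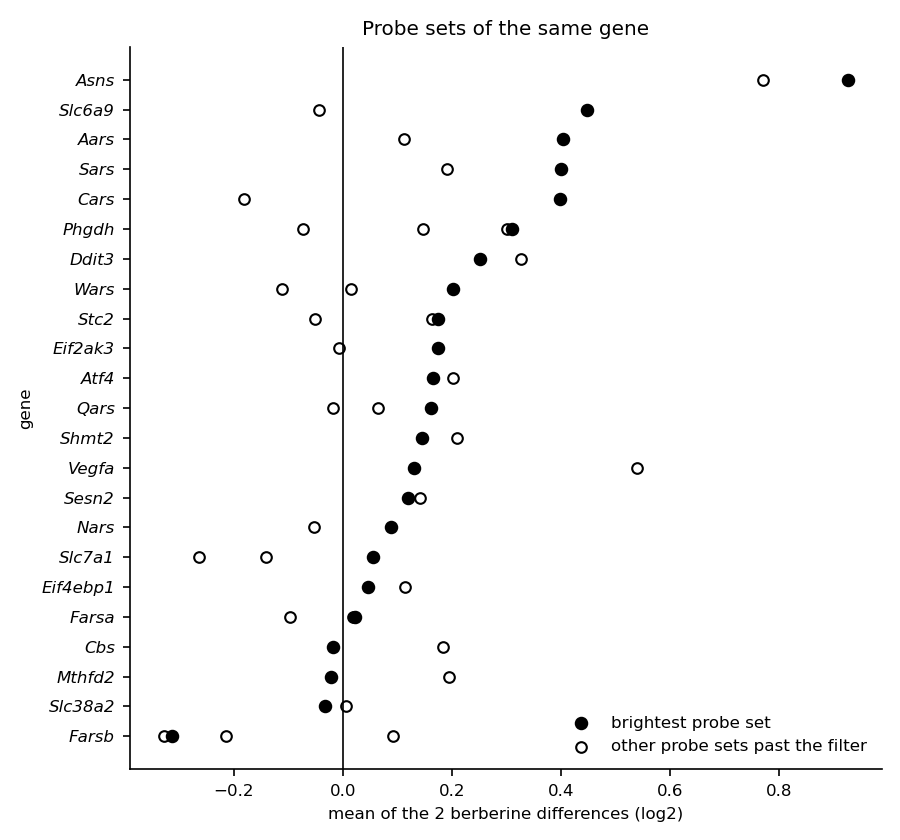
Mean of the 2 berberine differences (log2) for every probe set past the filter of the 23 members with at least 2; filled points are the brightest probe set and open points the others. The 2 probe sets of Asns lie at 0.93 and 0.77, whereas those of Cars lie on either side of 0.

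The antibody was compared with no antibody on arrays without berberine (DNP against control) and on arrays with it (BER+DNP against BER). In DNP against control 0 members were at least 1.5-fold higher, beside 0.803% of all genes, and 1 was lower, beside 0.628%. That 1 was Psph, 3.70 in DNP, against 4.35 in control, with a difference of -0.65; in BER+DNP against BER it gave -0.32. In BER+DNP against BER 0 members were called higher, beside 0.556%, and 0 lower, beside 0.358%. Synthetase genes had medians of 0.01 and -0.02 in the 2 comparisons, and response genes 0.01 and -0.03.

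With the antibody, 10 of the 48 members lay above 0 in both comparisons, beside 29.4% of all genes, and 13 below, beside 26%. Among the 13, Psph, Iars and Slc7a1 were at least 0.2 lower in both, as were 3.67% of all genes. Iars, for isoleucine, gave -0.24 and -0.47, and Slc7a1 -0.44 and -0.28; 2 other probe sets of Slc7a1 gave 0.18 and 0.10 in DNP against control, however. Across the 48 members the 2 comparisons correlated at r = 0.01 (Spearman's rho -0.05), against 0.17 over all genes.

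Both agents together against no treatment gave 2 members at least 1.5-fold higher, beside 0.906% of all genes, and 1 lower, beside 0.874%. The higher genes were Asns (0.84) and Cebpb (0.77), and the lower one Psph (-0.66). Sars followed at 0.43, Ddit3 at 0.41 and Stc2 at 0.38. BER+DNP against control shares arrays with the comparisons above, so these values repeat readings already given.

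Other genes of the pathway were examined from lists written for context. ATF4-linked genes outside the members had medians of 0.03 and 0.28 in the berberine pairs, with 3 of 7 above 0 in both (Vldlr, Slc1a4 and Slc1a5) and 2 below. Vldlr had the largest mean difference of the list, with 0.90 and 0.31, and Slc1a5, a glutamine transporter gene, gave 0.33 and 0.28. Genes of eIF2, its exchange factor and regulators had 0.11 and -0.10, with 1 of 12 above 0 in both and 2 below. Eif2b1, of the exchange factor, gave 0.64 and -0.05. Endoplasmic reticulum chaperone and stress genes gave -0.17 and -0.13. Of these 1 of 13 lay above 0 in both and 7 below, among them Xbp1 (-0.53 and -0.25) and Hsp90b1 (-0.29 and -0.49). Manf was low in the first pair only, with -0.80 and 0.02. Elongation and release factor genes had -0.19 and -0.12, with 2 of 6 above 0 in both and 4 below, led by the release factor gene Etf1 at -0.41 and -0.46. Cytosolic 1-carbon and proline genes had -0.10 and -0.08, with 0 of 4 above 0 in both and 2 below. The 2 scaffold genes of the multisynthetase complex past the filter gave -0.33 and 0.14 (Aimp1) and 0.12 and 0.15 (Aimp2).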

How the data were processed

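The authors hybridised total RNA of 4 cultures, 1 array a group, and made log2 signals of 45101 probe sets with Affymetrix Expression Console, per the submitters' processing notes; the deposited log2 table was used as it stands. Its version and summary algorithm are not given here, and the log2 scale was read from the values. Per the labels' protocols RNA had integrity numbers above 9.5, and 500 ng was labelled.

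The 64 control probe sets were set apart. Symbols came from a platform annotation of 2016, and the 34945 probe sets with 1 symbol were used; members were matched by symbol, allowing a trailing 1 for synthetases, or by RefSeq gene identifier. Differences are log2 signals of 1 array minus another. With 1 array a group no model was fitted, and called means at least 1.5-fold apart. The steps were tested on simulated data with 2-fold shifts planted in brighter genes (Python 3.11.15, pandas 2.3.3, numpy 2.4.6). Smaller shifts and dim genes were not covered by that test.

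Members, lists, comparisons and alternatives were chosen with earlier results of these data known. Signals on all 4 arrays were printed for members called in a berberine or antibody pair, for the 6 highest and 4 lowest of each subgroup by mean berberine difference, and for 12 genes fixed by name, of which Gdf15 was not measured. For context lists, up to 3 genes were named by size of the mean berberine difference. Part of the promoter matches is not reported here.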

Additional observations from a re-analysis of the deposited data

Results flagged for a closer look

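Members were picked out here when their differences in the 2 berberine pairs, or in the 2 antibody pairs, had opposite signs and lay at least 1.5-fold apart from each other or were each at least 0.2 in size. Each group held 1 array, so none of these differences between pairs was tested, and 3.93% of all genes past the filter had berberine differences of opposite sign at least 1.5-fold apart. That share belongs to the rule met by Mars1 and Tars, and shares for the other rules are not given here. Mars1, with berberine differences of 0.77 with and -0.10 without anti-DNP IgE, had the widest gap, 0.87, and its antibody differences were 0.39 with berberine and -0.48 without, which is the same gap of 0.87. Tars gave -0.18 with and 0.44 without the antibody, a gap of -0.62, and for the antibody -0.40 with and 0.21 without berberine. Aars gave antibody differences of -0.43 with and 0.19 without berberine, a gap of -0.62. Its second probe set past the filter did not repeat this, with 0.13 with and -0.08 without berberine. Eif2ak3 gave antibody differences of 0.28 with and -0.26 without berberine, a gap of 0.54. For its second probe set past the filter the antibody differences had the same sign, 0.12 with and 0.08 without berberine. Slc7a5 gave berberine differences of 0.24 with and -0.24 without the antibody, a gap of 0.48, and Cbs gave -0.24 and 0.21, a gap of -0.45. The second probe set of Cbs past the filter did not repeat this, with 0.37 with and 0.00 without the antibody.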

How the results depend on the processing

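Alternatives covered 20 results on the lists, and 96 of the 120 values stayed the same while 24 moved; 0 reversed a called value. With the median of all probe sets of a gene, synthetase medians were 0.019 for BER+DNP against DNP, 0.044 for DNP against control and 0.0071 for BER+DNP against BER, and the response median was -0.0051 for DNP against control. Synthetase genes above 0 in both berberine pairs then numbered 6 of 17, against 10 of 18 by the brightest probe set, those at least 1.5-fold higher in BER against control 0, and response genes higher in BER+DNP against DNP 2. With quantile normalization, synthetase medians were 0.15 and 0.13 in the berberine pairs and -0.0049 for DNP against control, the response median was -0.027 for DNP against control, and 2 synthetase and 2 response genes were higher in BER+DNP against DNP. With 32 added to the signal, which shrinks differences of dim genes by construction, synthetase medians were 0.066 and 0.044 in the berberine pairs and the response median 0.059 in the second; 1 response gene, Cebpb, was called in the first pair, and 0 synthetase and 0 response genes in the second. Asns then gave 0.51 and 0.33 and Mars1 0.32 in the second pair, so those calls were lost. Without probe sets that can cross-hybridise, synthetase medians were 0.022 for BER+DNP against DNP, 0.039 for DNP against control and -0.059 for BER+DNP against BER. With the filter at the 75th percentile, the response median was -0.0018 for BER+DNP against BER and 1 response gene lay below 0 in both berberine pairs. Shares of all genes under these alternatives are not given here, so the changed counts cannot be set against them. The sign of a berberine difference changed with the median of probe sets for Atf4 (first pair, -0.01), Phgdh (second, -0.15), Wars (second, -0.21) and Trib3 (both), and for Wars also without cross-hybridising probe sets. Except for the 32 added, the cause was not tested. No paired analysis was possible because the groups share fewer than 2 replicate numbers, with 1 sample each; an additive fit of berberine and antibody over the 4 arrays was not run. Signals near background limit what the 6 members below the filter can show.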
